A study of Mus musculus with 7 samples.

Results

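The FGF ligands and receptors are 10 genes: the ligands Fgf4, Fgf15, Fgf17, Fgf8, Fgf2 and Fgf7, and the receptors Fgfr1, Fgfr2, Fgfr3 and Fgfr4. They were picked by name and read from the probe sets that the platform annotation ties to a single gene symbol, out of 22180 genes measured that way. All 10 were measured, 9 of them by 1 probe set and Fgf15 by 2, of which the one with the higher mean is used.

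FGFs are secreted growth factors that bind receptor tyrosine kinases together with heparan sulfate chains on the cell surface. The receptors recruit adaptors that switch on RAS and the kinase ERK, and ERK in turn induces its own inhibitors. Mouse pluripotent cells make FGF4, whose ERK signal prepares them to leave the naive state, and in the early embryo FGF4 also steers cells of the inner cell mass towards primitive endoderm.

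Transcripts were measured on 7 single-colour Affymetrix whole-transcript arrays of mouse cells, all of strain 129. Embryonic stem cells (ESC) were wild type (WT) and had 1 array. Induced pluripotent stem cells (iPSC), made from somatic cells, had 2 WT arrays and 2 arrays with the Nanog gene knocked out (KO). Embryonic fibroblasts (MEF) had 1 array per genotype. Nanog encodes a transcription factor of the pluripotency network. The series asks how iPSC that lack Nanog compare with WT pluripotent cells. By the labels, iPSC replicates are biological, but separate lines and cultures of a single line are both possible for the KO iPSC pair. In the latter case, line-to-line spread is outside the p-values. ESC, 2i/LIF and MEF media are named without saying which sample grew in which. 2i holds an inhibitor of the kinase MEK, which acts just above ERK, so the part of the medium in the values below was not tested.

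All values are log2 intensities, and a difference is KO minus WT unless another order is named. A background level was set on each array from 1394 receptor genes of the olfactory and vomeronasal organs (their 95th percentile), which pluripotent cells and fibroblasts are not known to use. The arrays' levels ran from 6.30 to 6.50, with 61.0% to 63.7% of the genes higher than that. Nanog was at 12.73 (WT ESC), 12.84 and 12.76 (WT iPSC), 7.50 and 7.44 (KO iPSC), 6.53 (WT MEF) and 6.42 (KO MEF). The labels do not say if the deletion covers its probe set. All 11 pluripotent markers were above background on the 5 ESC and iPSC arrays, Nanog in KO iPSC included. In these bulk samples, fewer cells that express a gene and less RNA per cell cannot be told apart.

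Each of the 10 genes was above background on at least 1 array and 6 were above it on every array (Fgf4, Fgf15, Fgf17, Fgf8, Fgfr1 and Fgfr4). Levels are set side by side only within a gene, since probe sets of different genes differ in brightness. The plot of log2 intensity by array shows the pattern of each gene.

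**Figure D1:**
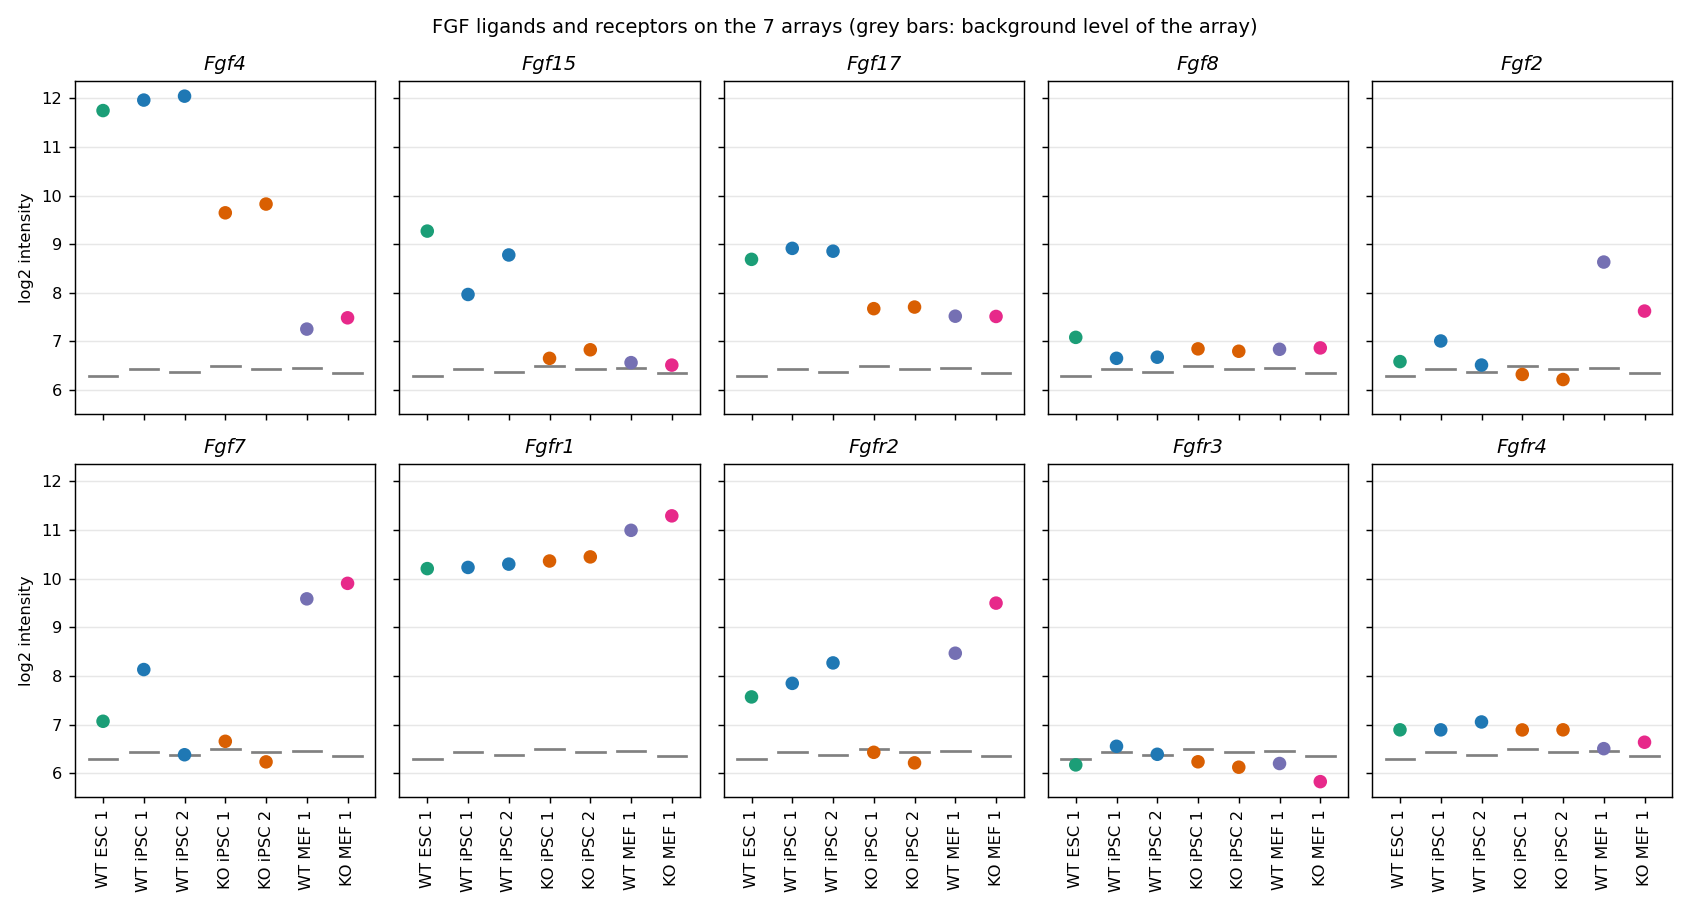
Log2 intensity (y axis) of the 6 FGF ligands and 4 receptors on each of the 7 arrays (x axis), 1 point per array, with a grey bar at the background level of that array. Fgf4 is at 11.75 or above on the 3 WT pluripotent arrays and at 9.64 and 9.82 in KO iPSC, and Fgfr2 in KO iPSC lies below the grey bars.

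The results turn most on the ligand Fgf4 and the receptor Fgfr2, which were both lower in KO iPSC, while fibroblasts had little Fgf4 and much Fgfr2, so the 250 bases upstream of their start sites are shown. Both lie on chromosome 7 of GRCm38.p6, with Fgf4 on the plus strand at chr7:144861136-144861385 and Fgfr2 on the minus strand at chr7:130266809-130267058, and the sequences are RefSeq's. Capitals mark the motifs found by letter match.
Fgf4: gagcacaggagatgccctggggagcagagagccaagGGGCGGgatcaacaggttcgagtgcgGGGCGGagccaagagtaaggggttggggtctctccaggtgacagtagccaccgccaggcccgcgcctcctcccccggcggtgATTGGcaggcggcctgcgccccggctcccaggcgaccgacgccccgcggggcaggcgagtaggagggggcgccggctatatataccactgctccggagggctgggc
Fgfr2: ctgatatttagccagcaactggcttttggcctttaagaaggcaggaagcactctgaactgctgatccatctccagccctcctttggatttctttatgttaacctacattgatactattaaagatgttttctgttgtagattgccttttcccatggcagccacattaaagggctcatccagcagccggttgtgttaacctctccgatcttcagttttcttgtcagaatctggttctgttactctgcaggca

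The motifs searched on both strands were the GC box (GGGCGG), the box named for its letters CCAAT, the TATA box (TATAAA), the octamer of POU factors (ATGCAAAT), a SOX motif (CATTGT) and a NANOG motif (TAATGG), none of which overlapped another in these windows. Fgf4 held GGGCGG at 214 to 209 and again at 188 to 183 bases upstream of the start, and CCAAT on the opposite strand at 106 to 102. Fgfr2 held none of the 6 motifs in this window. Over 32851 promoter windows of the same length, 32.7% held GGGCGG, 33.8% CCAAT, 12.4% TATAAA, 1.6% ATGCAAAT, 10.7% CATTGT and 6.57% TAATGG. The Fgf4 window was 71.2% G and C and the Fgfr2 window 44.0%, against a median of 52.4% over all windows. These matches describe letters only, and the enhancer through which Fgf4 is known to be driven in pluripotent cells lies outside this window. Windows were found for 6 of the 10 genes (Fgf2, Fgf4, Fgf7, Fgfr2, Fgfr3 and Fgfr4), and Fgf8, Fgf15, Fgf17 and Fgfr1 are named only.

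The comparison that the series names is KO iPSC against WT pluripotent cells, 2 arrays against 3. Fgf4, Fgf15, Fgf17 and Fgfr2 fell in KO iPSC, by between 2.19-fold and 4.54-fold, and none of the 10 genes rose. Fgf2, Fgf7, Fgf8, Fgfr1, Fgfr3 and Fgfr4 did not pass. Among all 22180 genes 8.81% fell and 6.89% rose at the same threshold, an adjusted p under 0.05 in limma after Benjamini-Hochberg correction across the whole table. The 4 of 10 that fell comprise 3 of the 6 ligands and 1 of the 4 receptors. The median difference over the 10 genes was -0.59, against 0.03 over all genes.

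Fgf4, the FGF that pluripotent cells secrete, stood at 11.75 in WT ESC, 11.96 and 12.04 in the WT iPSC pair, 9.64 and 9.82 in KO iPSC, 7.25 in WT MEF and 7.49 in KO MEF. The KO iPSC arrays lay below every WT pluripotent array and above both MEF arrays. Fgf4 fell 4.54-fold in KO iPSC (log2 -2.18, SE 0.12, 95% interval -2.48 to -1.89, adjusted p = 0.000716, limma). KO iPSC had more Fgf4 signal than KO MEF, by 2.25 (SE 0.13, adjusted p = 0.000352, limma). WT iPSC exceeded WT MEF by 4.75 (SE 0.13, adjusted p = 0.000141, limma). The order of the group means was thus WT iPSC, WT ESC, KO iPSC, KO MEF and WT MEF. WT iPSC and WT ESC did not differ past the threshold (-0.26 for ESC minus iPSC, interval -0.58 to 0.07, limma), and the 2 MEF arrays, 1 per genotype, carry no test.

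Fgf15 is the mouse counterpart of human FGF19, known as a gut hormone that restrains bile acid synthesis and as a ligand of the early nervous system. Its values were 9.27 in WT ESC, 7.97 and 8.78 in the WT iPSC pair, 6.65 and 6.83 in KO iPSC, 6.57 in WT MEF and 6.51 in KO MEF. The WT pluripotent arrays varied among themselves (SD 0.66), whereas the KO iPSC arrays sat close to the fibroblasts and just above background. Fgf15 fell 3.81-fold in KO iPSC (log2 -1.93, SE 0.36, interval -2.83 to -1.03, adjusted p = 0.0219, limma). KO iPSC did not differ from KO MEF past the threshold (0.23, interval -0.63 to 1.08, limma). Its other probe set lay near background on all arrays, between 6.36 and 6.69, and did not show the pattern. With the mean of both probe sets the difference was -0.91 (adjusted p = 0.0463, limma).

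Fgf17 belongs to the same subfamily as Fgf8 and is known from the patterning of the midbrain and cerebellum. It stood at 8.69 in WT ESC, 8.91 and 8.86 in the WT iPSC pair, 7.67 and 7.71 in KO iPSC, 7.52 in WT MEF and 7.51 in KO MEF. The KO iPSC arrays lay just above the fibroblasts and did not overlap the WT pluripotent arrays. Fgf17 fell 2.19-fold in KO iPSC (log2 -1.13, SE 0.10, interval -1.37 to -0.89, adjusted p = 0.0023, limma). The difference of KO iPSC from KO MEF was 0.18 (interval -0.09 to 0.44, limma), which did not pass.

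The remaining ligands did not pass in this comparison. Fgf8, which guides gastrulation and limb and brain patterning, stood at 7.08 in WT ESC, 6.65 and 6.68 in the WT iPSC pair, 6.85 and 6.80 in KO iPSC, 6.84 in WT MEF and 6.87 in KO MEF. All 7 arrays lay a little above background, and the groups overlapped (0.02, interval -0.35 to 0.39). Fgf2, the basic FGF that is a standard supplement of primed pluripotent cultures, stood at 6.59 in WT ESC, 7.01 and 6.52 in the WT iPSC pair and 6.32 and 6.22 in the KO iPSC pair. The KO iPSC arrays were below background and below all WT pluripotent arrays. The WT pluripotent mean was 1.18-fold above the background of the KO iPSC arrays. The difference (fitted log2 -0.43, SE 0.16, adjusted p = 0.137, limma) did not pass, so no minimum fall is claimed. Fgf7, the keratinocyte growth factor that mesenchymal cells send to epithelia, stood at 7.07 in WT ESC, 8.13 and 6.38 in the WT iPSC pair and 6.65 and 6.23 in the KO iPSC pair. The 2 WT iPSC arrays lay further apart than the genotypes, and the difference was -0.75 (interval -1.97 to 0.47).

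Fgfr2, a receptor that is known to mark the primitive endoderm side of the early embryo and many epithelia, was the only receptor of the 4 that fell. It stood at 7.57 in WT ESC, 7.85 and 8.27 in the WT iPSC pair, 6.43 and 6.21 in KO iPSC, 8.47 in WT MEF and 9.49 in KO MEF. Both KO iPSC arrays were below background while the 5 others were above it. The fall was therefore at least 2.68-fold (fitted log2 -1.57, SE 0.21, adjusted p = 0.008, limma). Of all 7 arrays, the KO MEF array had the highest Fgfr2 and the KO iPSC arrays the lowest. The deposited value of a gene does not separate the epithelial and mesenchymal splice forms of the receptor.

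Fgfr1, the main FGF receptor of naive pluripotent cells, stood at 10.20 in WT ESC, 10.23 and 10.30 in the WT iPSC pair, 10.36 and 10.44 in KO iPSC, 10.99 in WT MEF and 11.29 in KO MEF. The KO iPSC arrays lay just above the WT pluripotent arrays, by 0.16 (interval -0.04 to 0.36, adjusted p = 0.24, limma). The interval leaves room for a rise or a small decline, and a fall of the size seen for Fgfr2 is outside it. Fgfr3, a receptor best known as a brake on bone growth, stood at 6.17 in WT ESC, 6.55 and 6.39 in the WT iPSC pair, 6.23 and 6.12 in KO iPSC, 6.20 in WT MEF and 5.83 in KO MEF. It exceeded background in the WT iPSC arrays alone. Fgfr4, the receptor through which FGF15 acts on liver, stood at 6.89 in WT ESC, 6.89 and 7.05 in the WT iPSC pair, 6.89 in both KO iPSC arrays, 6.50 in WT MEF and 6.64 in KO MEF. It was above background throughout and differed between genotypes by -0.05 (interval -0.27 to 0.16).

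Both KO iPSC arrays lay below all 3 WT pluripotent arrays for 5 of the 10 genes (Fgf2, Fgf4, Fgf15, Fgf17 and Fgfr2), an arrangement that 23.2% of all genes showed. Which of the 4 falls passed depended on single arrays. With KO iPSC replicate 1 left out, Fgf4 alone passed, while Fgf15 (adjusted p = 0.175), Fgf17 (0.0519) and Fgfr2 (0.0806) did not in limma. With KO iPSC replicate 2 left out, Fgf4 and Fgf17 passed and Fgf15 (0.145) and Fgfr2 (0.0969) did not. With WT iPSC replicate 2 left out, Fgf15 alone was lost (0.0721). The KO array that remains in the first 2 settings is assumed to vary like the WT arrays, and 1.54% and 1.82% of all genes passed there in either direction. In these settings the difference itself was -1.84 and -2.02 for Fgf15. With the KO arrays counted as 1 sample, since the labels leave a single line possible, Fgf4 (0.0227) and Fgf17 (0.0497) passed and Fgf15 (0.169) and Fgfr2 (0.0916) did not, where 1.65% of all genes passed.

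Other markers also moved between these groups, where 8.81% of all genes fell and 6.89% rose in KO iPSC against WT pluripotent cells. Of 11 pluripotent markers 3 fell in KO iPSC (Nanog, Utf1 and Tdgf1), and against WT iPSC Esrrb fell as well. The summed linear intensity of the 11 was 41740 in WT ESC, 42200 and 42140 in the WT iPSC pair and 27870 and 27860 in the KO iPSC pair. The sum was thus lower on both KO iPSC arrays, as Fgf4 was. It includes Nanog, the gene knocked out, and was not taken without it. The median difference of the 11 markers was -0.225, against 0.03 over all genes. Of 6 neuroectoderm markers 4 fell in KO iPSC (Olig2, Tubb3, Ncam1 and Nes), while Sox1 and Pax6 did not pass. The summed linear intensity of the 6 was 3526 in WT ESC, 5316 and 5035 in the WT iPSC pair and 777 and 844 in the KO iPSC pair. In MEF the sum was 6809 (WT) and 4940 (KO), so it does not measure neural signal alone. Ncam1 stood at 12.20 in WT MEF and 12.06 in KO MEF, above every pluripotent array, while Olig2 was below background in MEF. Olig2, which marks neural progenitors, was at 9.82 in WT ESC, 9.51 and 10.59 in the WT iPSC pair and below background at 5.78 and 5.74 in the KO iPSC pair. Of 9 measured markers of primed epiblast and early mesoderm 3 fell (Lefty1, Otx2 and Sox4). Against WT iPSC these 3 fell too, and Eomes rose. The sum of the 9 was 4712 in WT ESC, 2811 and 3501 in the WT iPSC pair and 2009 and 1922 in the KO iPSC pair. The WT pluripotent arrays thus carried more summed signal of both lists than the KO iPSC arrays. The part of these 3 lists in the values of Fgf4, Fgf15, Fgf17 and Fgfr2 was not tested.

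When iPSC alone were compared, 2 KO against 2 WT arrays within the fit of all 7 arrays, the genes that passed were again Fgf4, Fgf15, Fgf17 and Fgfr2. The background was 9.55% of genes lower and 6.93% higher. These 4 arrays are all part of the first comparison, so this is no independent test. Fgf4 differed by -2.27 (SE 0.10, adjusted p = 0.00104), Fgf17 by -1.19 (SE 0.08, 0.00234), Fgf15 by -1.63 (SE 0.27, 0.0196) and Fgfr2 by at least 3-fold (fitted -1.74, SE 0.17, 0.00479), all in limma. With WT iPSC replicate 2 left out, 7 genes passed instead of 4, and Fgf2, Fgf7 and Fgfr3, all lower in KO iPSC, were the added ones. In that setting 25.3% of all genes passed in either direction, with 1 WT array and a spread taken from the KO pair alone (1 residual degree of freedom). With either KO array left out, Fgf15 no longer passed (0.126 and 0.099), where 2.34% and 2.56% of all genes did. The WT iPSC arrays differed more from each other (SD of their differences over genes 0.32) than the KO iPSC arrays did (0.15).

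Between the WT pluripotent groups, WT ESC and WT iPSC, 0 of the 10 genes passed in limma, where 0.162% of all genes did. At an unadjusted p under 0.05 there were 2704 genes, among them Fgf8 and Fgf15 of the 10. Fgf8 was higher in the ESC array by 0.42 (interval 0.16 to 0.68, adjusted p = 0.226) and Fgf15 by 0.90 (interval 0.04 to 1.75, adjusted p = 0.388). With WT iPSC replicate 2 left out, Fgf15, higher in ESC (adjusted p = 0.00473), and Fgf7, lower in ESC (adjusted p = 0.0303), passed in limma, where 10.3% of all genes did. This comparison has a single ESC array, which is taken to vary as the iPSC arrays do.

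**Figure D2:**
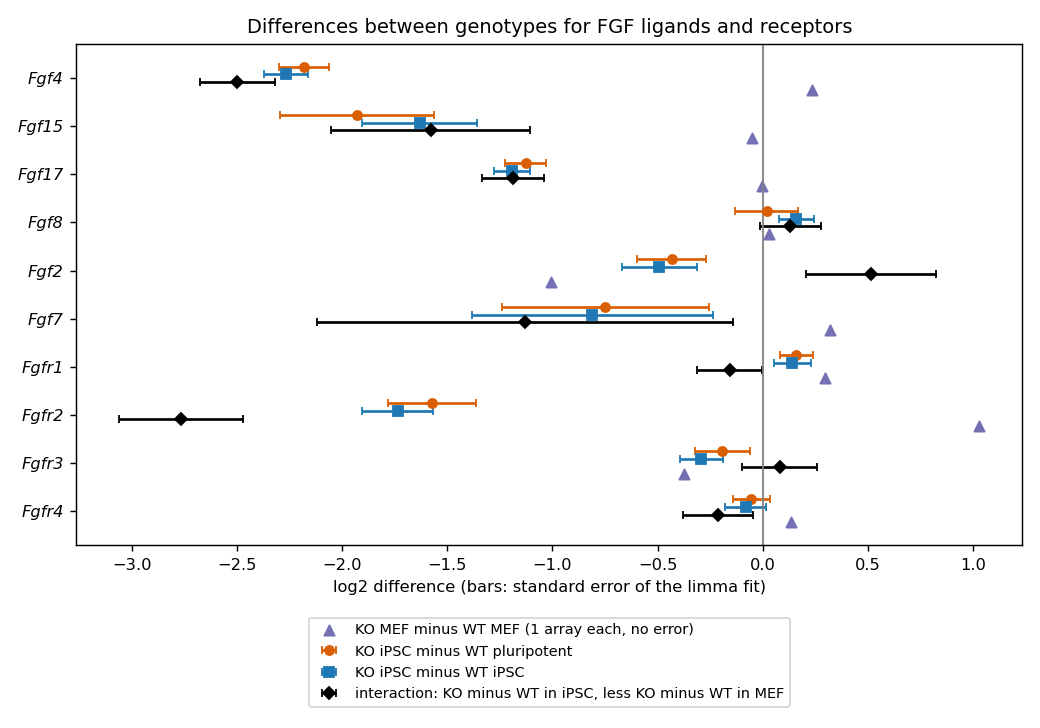
Log2 differences (x axis) of the 10 genes (y axis) between genotypes, with bars of 1 standard error of the limma fit, for KO iPSC minus WT pluripotent cells, KO iPSC minus WT iPSC, the KO minus WT MEF pair (1 array each, no error) and the interaction. Values are as fitted, also where KO iPSC were below background. Fgf4, Fgf15, Fgf17 and Fgfr2 lie at -1.13 or further left in both iPSC comparisons, and Fgfr2 in MEF lies on the opposite side at 1.03.

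The MEF pair shows the same genotypes in fibroblasts, with 1 array each and no test. Fgfr2 was higher in KO MEF than in WT MEF by 1.03 and Fgf2 lower by 1.01. They are 2 of the 10 genes at least 2-fold apart, where 4.56% of all genes were. Fgf4 (0.23), Fgf15 (-0.05) and Fgf17 (-0.01) differed little between the MEF arrays.

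Whether the genotype difference was unlike in iPSC and MEF was tested as an interaction in the 7-array fit, which assumes that the single MEF arrays vary like the iPSC groups. It passed, towards a greater fall in iPSC, for Fgf4 (-2.50, SE 0.18, adjusted p = 0.00598, limma), Fgf17 (-1.19, SE 0.15, 0.016) and Fgfr2 (fitted -2.77, SE 0.29, 0.0119). The other 7 genes did not pass, Fgf15 (-1.58, SE 0.47, 0.118) included. Over all genes 5.48% had a lower and 3.07% a higher interaction, and the median of the 10 genes was -0.67 against 0.04. Fgfr2 contributes differences of opposite sign, at least 3-fold lower in KO iPSC and 2.04-fold (log2 1.03) higher in KO MEF. By contrast, Fgf4 and Fgf17 moved in iPSC with little difference in MEF. With KO iPSC replicate 1 left out none of the 10 passed, and with replicate 2 left out Fgf4 alone did, where 0.401% and 0.712% of all genes passed. With either WT iPSC array left out 5 passed, Fgf15 among them (0.00128 without replicate 1 and 0.00675 without replicate 2), joined by Fgf2 or Fgf7, where 22.6% and 21.8% of all genes passed.

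The comparison of iPSC with MEF, over 4 and 2 arrays with genotype held in the fit, sets the reprogrammed cells against fibroblasts. Fgf4 and Fgfr4 were higher in iPSC, and Fgf7, Fgf2 and Fgfr1 were lower. Over all genes 16.0% were higher and 14.7% lower. Fgf4 was 11.3-fold higher (log2 3.50, SE 0.55, adjusted p = 0.00778, limma). Fgfr4 was higher by 0.36 (SE 0.10, adjusted p = 0.0458, limma), a call that was lost after centring, after quantile normalization and when any 1 of the iPSC arrays was left out.

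Among the genes higher in fibroblasts, Fgf7 stood at 9.58 in WT MEF and 9.90 in KO MEF, above every pluripotent array. Its level in iPSC was 7.43-fold lower (log2 -2.89, SE 0.54, adjusted p = 0.0134, limma). Fgf2 stood at 8.63 in WT MEF and 7.63 in KO MEF and was 3.06-fold lower in iPSC (log2 -1.61, SE 0.19, adjusted p = 0.00341, limma). Both MEF arrays exceeded all pluripotent arrays for Fgf2 as well. Fgfr1 was lower in iPSC by 0.81 (SE 0.09, adjusted p = 0.00273, limma), the smallest of the 3 differences.

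Contrasts within the WT and within the KO arrays were added after these data were seen. The difference between such contrasts is the interaction above, which passed for Fgf17 and Fgfr2 and did not for Fgf15. In WT arrays 32.6% of all genes passed and in KO arrays 35.9%. Fgf15 exceeded WT MEF in WT iPSC by 1.81 (adjusted p = 0.0136, limma) and Fgf17 by 1.37 (0.00118), while in KO arrays the differences were 0.23 and 0.18 and did not pass. For Fgfr2, WT iPSC lay below WT MEF by 0.41 (interval of the difference -0.94 to 0.12, adjusted p = 0.215, limma). KO iPSC lay at least 8.14-fold below KO MEF (fitted -3.17, SE 0.21, adjusted p = 0.000516, limma). With both genotypes in 1 fit, Fgf15 (1.02), Fgf17 (0.77) and Fgfr2 (-1.79) did not pass, and Fgfr2 passed once WT ESC was added to the iPSC (adjusted p = 0.0493, limma). Fgf7, lower in iPSC in the joint fit, missed the threshold within the WT arrays (-2.33, adjusted p = 0.0597, limma).

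The pluripotent arrays differed in how much fibroblast signal they carried. Of 15 fibroblast markers, 13 were above background in WT ESC, 14 and 9 in the WT iPSC pair, 10 and 11 in KO iPSC, 14 in WT MEF and 15 in KO MEF. Their summed linear intensity was 11060 in WT ESC, 15950 and 8338 in the WT iPSC pair, 11010 and 10900 in KO iPSC, 45180 in WT MEF and 67110 in KO MEF. A single marker, fibronectin (Fn1), made up 53.5% to 85.1% of the sum on the pluripotent arrays. Without it the sums were 3712 in WT ESC, 7422 and 2075 in the WT iPSC pair and 1692 and 1621 in KO iPSC. The median log2 intensity of the 15 markers was 7.92 in WT ESC, 9.09 and 7.20 in the WT iPSC pair, 6.98 and 6.91 in KO iPSC, 11.28 in WT MEF and 11.97 in KO MEF. WT iPSC replicate 1 was the highest of the pluripotent arrays in each of these measures. KO iPSC were lowest in the sum without Fn1 and in the median. In the count (9) and in the full sum (8338) WT iPSC replicate 2 was lowest.

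In KO iPSC against WT pluripotent cells 1 of the 15 fibroblast markers fell, the collagen gene Col1a1 (-2.44, adjusted p = 0.0427, limma), and none rose. The median difference of the list was -0.88, against 0.03 over all genes. WT iPSC replicate 1 also had the highest Fgf7 (8.13) and Fgf2 (7.01) of the pluripotent arrays. The KO iPSC pair had the lowest Fgf2, Fgfr2 and Fgf4 of them. Among the 3 WT pluripotent arrays the order for Fgfr2 and Fgf4 was another, with both highest (8.27 and 12.04) on WT iPSC replicate 2, the array with the lowest marker median of the 3. The part of fibroblast RNA in the values of these genes was not tested.

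**Figure D3:**
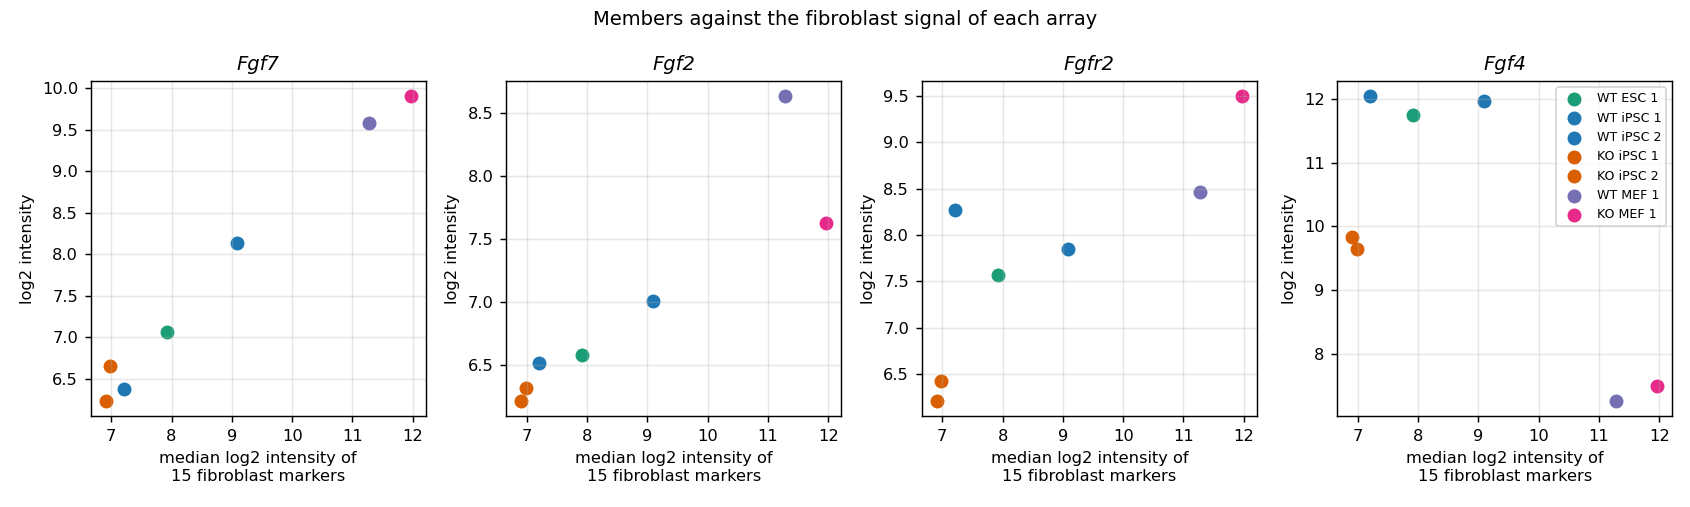
Log2 intensity (y axis) of Fgf7, Fgf2, Fgfr2 and Fgf4 against the median log2 intensity of 15 fibroblast markers (x axis), 1 point per array. Among the 5 pluripotent arrays Fgf7 and Fgf2 are highest at the largest median, 9.09. The KO iPSC arrays have the lowest medians, 6.98 and 6.91, and the lowest Fgfr2 and Fgf4 of the 5, while among the 3 WT arrays Fgfr2 and Fgf4 are highest at the lowest median, 7.20.

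The rest of the pathway was described through 7 lists with 94 genes, of which 83 were measured and 11 were not analysed here. In KO iPSC against WT pluripotent cells 11 of the 83 rose, 12 fell and 60 did not pass, against the background of 6.89% and 8.81%. The lists are described by counts, and the genes named are those with the largest differences that passed.

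The other FGF ligands numbered 12, of which 1 fell, and their median was 0.03. That gene was Fgf3, a ligand of inner ear development and a neighbour of Fgf4. It stood at 6.48 in WT ESC, 6.58 and 6.4 in the WT iPSC pair and 6.05 and 6.06 in the KO iPSC pair, all close to or below background. The fold is thus at least 1.01-fold (fitted -0.43, adjusted p = 0.0265, limma). Of the 4 intracellular FGF homologous factors none passed. In the interaction 3 of the 12 ligands passed, and they are named after their values were seen: Fgf18 (-2.98), Fgf10 (-1.73) and Fgf5 (-0.89). Fgf18 stood at 7.49 in WT ESC, 8.23 and 8.60 in the WT iPSC pair, 7.46 and 7.60 in KO iPSC, 7.70 in WT MEF and 9.79 in KO MEF, and Fgf10 was above background on the KO MEF array alone. These are, like Fgfr2, genes with a higher value on the KO MEF array.

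Of 8 co-receptors and FGF-binding proteins, 3 rose and none fell, with a median of 0.22. Fgfbp1, a secreted carrier that releases FGFs from the matrix, stood at 6.02 in WT ESC, 6.53 and 6.46 in the WT iPSC pair and 8.72 and 8.61 in the KO iPSC pair. Its rise of 2.33 (SE 0.17, adjusted p = 0.00144, limma) separated the KO iPSC from all other arrays, MEF included. Fgfrl1, a receptor relative without a kinase domain, rose by 0.65, and Flrt3, a membrane protein that binds FGF receptors, by 0.52.

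Among 24 measured genes of heparan sulfate chains and their core proteins, 4 rose and 5 fell, with a median of -0.16. Gpc3, a glypican anchored to the cell surface, fell by 2.92 on the log2 scale (SE 0.11, adjusted p = 0.0003, limma), from 10.49 in WT ESC and 10.43 and 10.22 in WT iPSC to 7.42 and 7.50. Sdc4, a transmembrane syndecan, rose by 1.96 (SE 0.10, adjusted p = 0.000643, limma), from between 10.04 and 10.24 in WT pluripotent cells to a mean of 12.08 over both KO iPSC arrays. The core proteins therefore moved in both directions. Sdc2 (-1.58) and the sulfatase Sulf1 (-1.16), which trims the sulfate groups that FGFs bind, fell. Both were at 11.38 or above in MEF, and WT iPSC replicate 1, with the most fibroblast signal, had the highest Sdc2 of the pluripotent arrays (10.33). Sulf1 was instead highest in WT ESC (9.47), against 9.30 on WT iPSC replicate 1. The part of fibroblast RNA in these 2 genes was not tested.

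Genes that act inside the cell fall into 3 lists. Of 12 measured receptor adaptors Sos2, an exchange factor that loads RAS, rose by 0.81 and Crkl fell by 0.40 on the log2 scale. Of 7 measured genes from RAS to ERK, the kinases Rps6ka3 (-0.86) and Map2k1 (-0.46) fell and none rose. Of 16 measured genes of ERK feedback and ERK targets, 3 rose (Egr1, Dusp5 and Spry2) and 3 fell (Ccnd1, Spred3 and Etv5).

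ERK targets thus moved in both directions. Egr1, an immediate early gene that ERK induces, stood at 10.06 in WT ESC, 9.72 and 8.37 in the WT iPSC pair and 12.34 and 12.50 in the KO iPSC pair, a rise of 3.04 (SE 0.49, adjusted p = 0.0137, limma). Dusp5, a phosphatase that acts on ERK, rose by 1.55 (SE 0.12), and Spry2, a feedback inhibitor, by 0.61 (SE 0.09). Ccnd1, the cyclin of the early cell cycle, fell by 1.56 on the log2 scale (SE 0.10) and Etv5, an ETS factor that FGF induces, by 0.40. Dusp6, the phosphatase often read as a measure of FGF-ERK activity, was at 10.62 in WT ESC, 9.87 and 10.76 in the WT iPSC pair and 10.76 and 10.81 in the KO iPSC pair. Spred3, Etv5 and Dusp6 were named after their values were seen, and the Dusp6 difference of 0.36 (interval -0.29 to 1.02) did not pass.

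**Figure D4:**
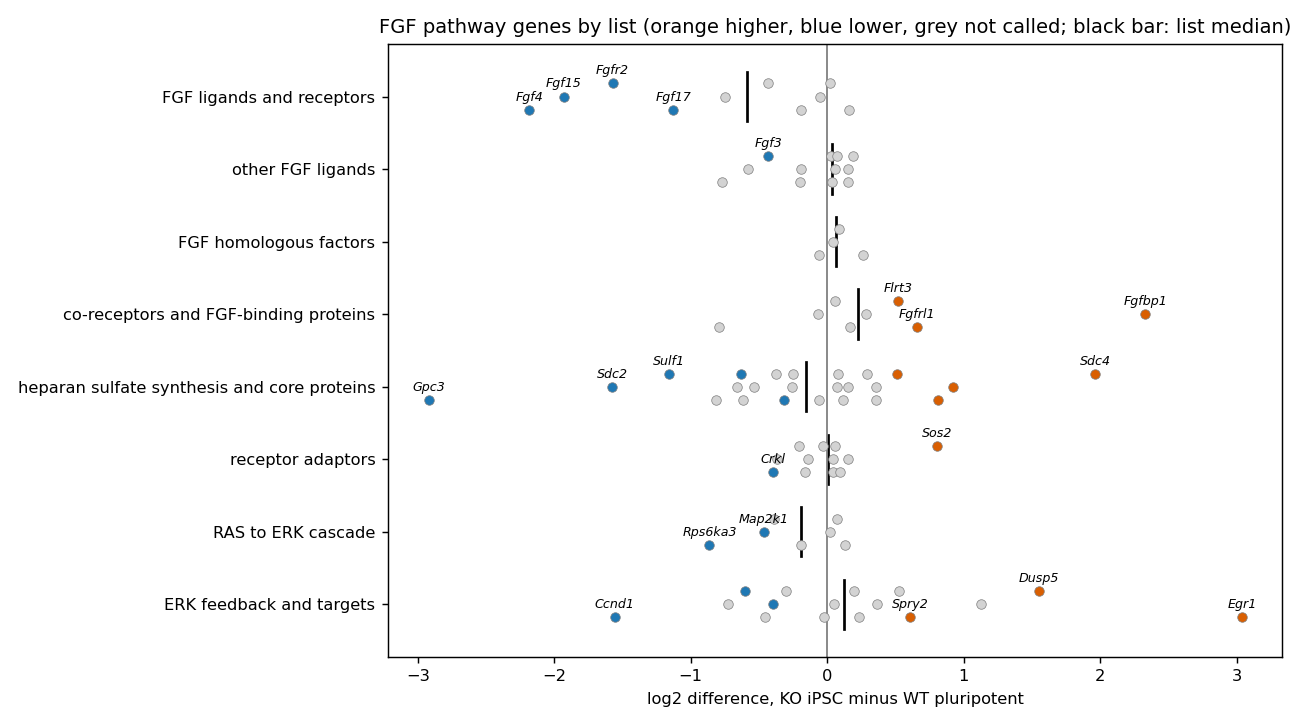
Log2 difference of KO iPSC minus WT pluripotent cells (x axis) for the 10 FGF ligands and receptors and for 7 lists of related genes (y axis), 1 point per gene, orange where higher, blue where lower and grey where the test was not passed, with a black bar at the median of the list. The ligands and receptors have a median of -0.59, and the medians of the other lists lie between -0.19 and 0.22.

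Fgf4 lies in a cluster of genes that holds 2 other FGF ligands. In the order of the GRCm38.p6 annotation the protein-coding genes are Fadd, Ano1, Fgf3, Fgf4, Fgf15, LTO1 and Ccnd1. In KO iPSC against WT pluripotent cells 3 of the 6 genes beside Fgf4 fell (Fgf3, Fgf15 and Ccnd1), where 8.81% of all genes did, and these 3 are counted above as well. Fadd (0.17, adjusted p = 0.393), the chloride channel gene Ano1 (-0.55, 0.409) and LTO1 (0.11, 0.518) did not pass in limma. Ccnd1 stood at 11.25 in WT ESC, 11.52 and 11.38 in the WT iPSC pair, 9.84 and 9.81 in KO iPSC, 11.04 in WT MEF and 11.44 in KO MEF. It was thus lowest in the KO iPSC and, unlike Fgf4, high in fibroblasts. Fgf15 resembled Fgf4 in being low in KO iPSC and in MEF, and Fgf3 was dim on all arrays.

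**Figure D5:**
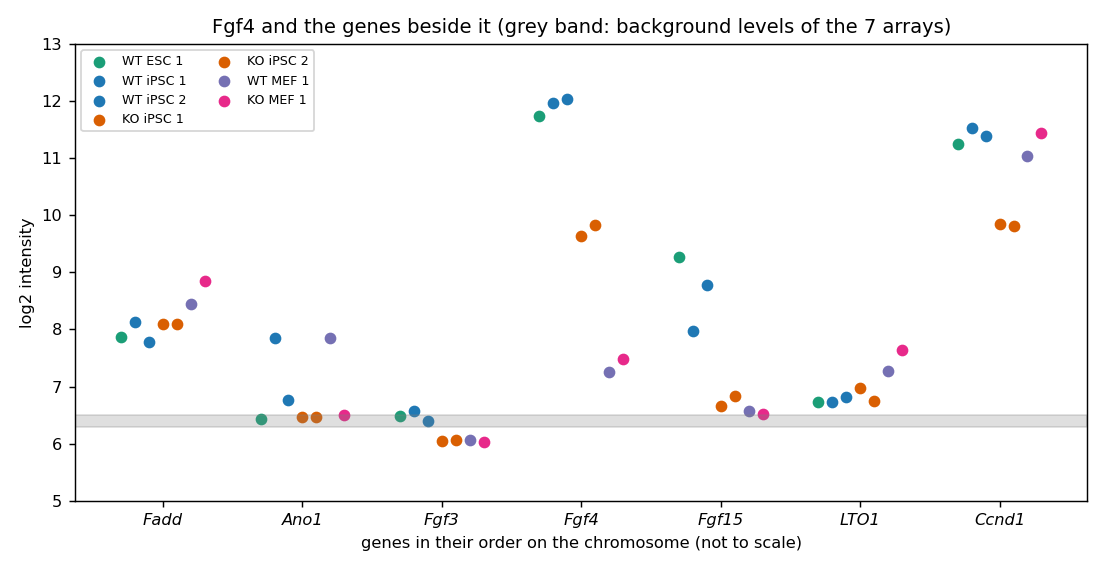
Log2 intensity (y axis) of Fgf4 and the 3 protein-coding genes on each side of it, in chromosome order and not to scale (x axis), 1 point per array, with a grey band over the background levels of the 7 arrays. In KO iPSC Fgf4 is at 9.64 and 9.82 and Ccnd1 at 9.84 and 9.81, below the WT pluripotent arrays, whereas Ccnd1 in MEF is at 11.04 and 11.44.

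The genes whose pattern over the 7 arrays was nearest to that of a member were found by the Euclidean distance between mean-centred log2 values, for the 5 members that spanned more than 2 log2 units. For Fgf4, which spanned 4.79, they were Zfp459 (distance 0.42), Mael (0.43) and Mtmr7 (0.73). Zfp459 encodes a zinc finger protein and Mael a protein of germ cells that acts against transposons. Mael stood at 9.19 in WT ESC, 9.57 and 9.93 in the WT iPSC pair, 7.18 and 7.14 in KO iPSC, 4.79 in WT MEF and 4.97 in KO MEF, the same 3 steps as Fgf4. For Fgf15 they were Ripply1 (0.42), the meiotic recombinase Dmc1 (0.43) and Cdca7l (0.44).

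For Fgfr2 the nearest genes were Cers4 (0.57), Gm20559 (0.62) and Crabp2 (0.78), which binds retinoic acid. Cers4, a ceramide synthase, stood at 8.68 in WT ESC, 9.38 and 9.41 in the WT iPSC pair, 7.35 and 7.46 in KO iPSC, 9.58 in WT MEF and 10.29 in KO MEF. It shared with Fgfr2 the lowest values in KO iPSC and the highest in KO MEF. For Fgf7 the nearest were Gm2115 (0.31), St3gal1 (0.45) and the adhesion molecule Vcam1 (0.53), and for Fgf2 Shroom4 (0.27), 2900026A02Rik (0.32) and Zfp697 (0.37). The distances describe these 7 arrays only.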

How the data were processed

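The authors deposited 1 table of probe set intensity values on a linear scale for the 7 arrays, for which the submitters' processing notes name RMA and Affymetrix Expression Console 1.3.0.187. The intensity values ran from 9.67 to 13043. The log2 was taken here with no pseudocount and no further scaling. Of 33649 probe sets the platform annotation lists 25335, of which 23521 carry 1 symbol and 1814 several, and 8314 are unnamed here. Through Entrez identifiers 23328 matched RefSeq. The probe set with the highest mean stood for each of 1082 genes that had several, which left 22180 genes, none filtered.

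Differences were tested with limma 3.58.1 in R 4.3.3 (lmFit, eBayes, two-sided), adjusted by Benjamini-Hochberg over all genes, at a threshold of 0.05. KO iPSC against WT pluripotent cells used 5 arrays with 3 residual degrees of freedom, iPSC against MEF used 6 arrays with genotype as a covariate and 3, and all other contrasts came from 1 fit of all 7 arrays by group with 2. Where every array on the dim side lay below background, the fold is a lower bound against the mean background of those arrays, written "at least"; the interaction has no bounds. The p-values weigh each difference against the residual spread of its fit. In the fit of all 7 arrays this spread comes from the 2 iPSC pairs alone, since the ESC and MEF groups have 1 array each. The scripts were tested on simulated data. The precision is limited by the number of arrays.

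The genes, lists, markers and tests were chosen with earlier results of these data known. Named genes are the 10 ligands and receptors, Nanog, up to 4 genes of each pathway list with the largest differences past the threshold, the 3 genes on either side of Fgf4, and the 3 genes nearest in pattern to each member spanning over 2 log2 units. Spred3, Etv5, Dusp6, Fgf18, Fgf10, Fgf5 and the single marker genes fall outside this rule and were named after their values were seen. Of the marker lists, pluripotent, fibroblast, neuroectoderm and primed epiblast are given in the report. Of 8 primitive endoderm markers 1 rose and 1 fell in KO iPSC against WT pluripotent cells, of 8 trophectoderm markers 1 rose and 1 fell, and of 6 macrophage markers none passed. Same-numbered iPSC arrays did not deviate together (correlation over genes 0.02). The alternatives were other scalings, a filter on dim genes, the mean of probe sets, trend and robust fitting, other sets of arrays and leaving out single arrays. Promoter letters were read from RefSeq's table for GRCm38.p6.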

Additional observations from a re-analysis of the deposited data

Results flagged for a closer look

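The genotype difference differed between iPSC and MEF, by the interaction test in limma, for Fgf4 (-2.50, adjusted p = 0.00598), Fgf17 (-1.19, 0.016) and Fgfr2 (fitted -2.77, 0.0119) among the FGF ligands and receptors. KO minus WT was -2.27 in iPSC and 0.23 in MEF for Fgf4, and -1.19 and -0.01 for Fgf17. Fgfr2 was at least 3-fold lower in KO iPSC, where it was below background, and 2.04-fold (log2 1.03) higher in KO MEF. The MEF side rests on 1 array per genotype.

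The same test in limma passed for Nanog (-5.22, adjusted p = 0.00337) and for 10 of the other named genes of the pathway. Those with a positive interaction were the FGF carrier Fgfbp1 (2.08, 0.00678), the syndecan Sdc4 (2.23, 0.00894), the RAS exchange factor Sos2 (1.03, 0.0283) and the ERK phosphatase Dusp5 (3.52, 0.00383). Those with a negative one were the glypican Gpc3 (-4.08, 0.00394), the kinase Rps6ka3 (-1.04, 0.0409) and the cyclin Ccnd1 (-2.03, 0.00759), with the ligands Fgf18 (-2.98, 0.00816), Fgf10 (-1.73, 0.0192) and Fgf5 (-0.89, 0.0443), which were named after their values were seen. In MEF, KO minus WT was -1.88 for Dusp5 and 1.21 for Gpc3, opposite in sign to 1.65 and -2.87 in iPSC. It was 2.09 for Fgf18 and under 0.5 in size for the other 6, while Fgf10 was above background on the KO MEF array alone.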

How the results depend on the processing

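The 4 genes that fell in KO iPSC against WT pluripotent cells stayed at 4 under centring, quantile normalization, a filter on dim genes, the mean of probe sets, trend and robust fitting and without WT ESC. With the 2 KO arrays counted as 1 sample 2 passed (Fgf15 at 0.169 and Fgfr2 at 0.0916 in limma did not), and leaving out single replicates gave 1 to 4. Leave-one-out counts were 3 to 7 for KO against WT iPSC, 0 to 2 for WT ESC against WT iPSC, 4 in every case for iPSC against MEF (5 with all arrays), and 0 to 5 for the interaction. Fewer arrays remain in these settings. Without a WT iPSC array, the fit by group takes its spread from the KO iPSC pair alone. The replicate block, on the 4 iPSC arrays, also gave 4 genes (Fgf4 at an adjusted p of 0.00202, Fgf15 0.00923, Fgf17 0.00575, Fgfr2 0.00827, limma), although the numbers do not pair the samples, and over all genes 1331 higher and 1948 lower against 1538 and 2118 without it.

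Differences that changed sign did so only when single replicates were left out, in genes that had not passed: Fgf8 in KO iPSC against WT pluripotent cells (-0.0568 to 0.0432), Fgf7 in KO against WT iPSC (-1.69 to 0.0647), Fgf2 (-0.424 to 0.071), Fgf7 (-1.06 to 0.69) and Fgfr4 (-0.16 to 0.0007) in WT ESC against WT iPSC, and Fgfr3 in the interaction (-0.0013 to 0.163). Of the single-gene results, 474 kept their direction and side of the threshold, 25 no longer passed, 13 newly passed and 8 changed sign. Fgf15 in KO against WT iPSC missed the threshold with the mean of its probe sets (-0.75, adjusted p = 0.0552, limma).

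Scaling moved the balance of all calls but none of the 4 falls: 43.9% of the calls in KO iPSC against WT pluripotent cells were higher as deposited, 54.1% after centring and 53.0% after quantile normalization. The mean background level of 6.41 became 5.83 at the 90th and 7.66 at the 99th percentile. At the former all 10 genes were above it on every array. At the latter Fgfr1 alone was above it on every array. Fgf8, Fgfr3 and Fgfr4 were never above it, so their values are near the limit of measurement. Fgf15 and Fgf17 in KO iPSC and Fgf4 in MEF also lay below that level. Judged by it, the falls of Fgf15 and Fgf17 and the differences of Fgf4 between iPSC and MEF would be lower bounds.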
